A study of Mus musculus with 24 samples.

Results

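Secreted proteins of innate defence and of the acute phase response were examined in organoids of the mouse ventral prostate. The set holds 10 genes chosen by name, out of 54838 in the table: the lactoferrin gene Ltf, the lipocalin gene Lcn2, S100a8, S100a9, the serum amyloid gene Saa1, the antiprotease genes Slpi and Wfdc18, the ceruloplasmin gene Cp, and the complement genes C3 and Cfb. All 10 were found in the table, and 8 passed the filter for testing, which asked for 1 FPKM or more in 5 or more libraries. FPKM counts fragments scaled to transcript length and library size. The genes were picked with results of these libraries known, and the values that chose them are not stated. Their differences between genotypes and between clones are therefore descriptions, given without a test.

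The study's title concerns RAD21 in prostate cancer. RNA was sequenced from organoids of the genotype Tmprss2-ERG, called T-ERG, and of the genotype Tmprss2-fl/fl-ERG, the group labelled control. Both names hold Tmprss2 and ERG, so the control is not shown to be unmodified at that locus. All organoids came from mice aged 4 months, with 2 organoid clones per genotype and 5 Matrigel domes per clone, each dome giving 1 library. Cells were seeded singly, 3000 to a dome. No promoter, Cre line or agent is named beyond these genotypes, and the labels leave unsaid whether each clone had its own mouse of origin.

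Epithelia that face the outside, such as the ducts of the prostate, secrete proteins that starve microbes of metals, block proteases released during inflammation and tag microbes for clearance. Ltf binds iron, and Lcn2 captures the siderophores with which bacteria collect it. S100a8 and S100a9 form calprotectin, a heterodimer that binds zinc and manganese and is best known from neutrophils. Cp oxidises iron for export, Saa1 is an acute phase apolipoprotein made mostly by the liver, Slpi inhibits neutrophil elastase, and C3 and Cfb act in the alternative pathway of complement. Many genes of this kind are induced through NF-kB, C/EBP and STAT3 transcription factors.

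The sequences upstream of 4 members are shown because these genes had contrasting distributions over the clones. RefSeq (GRCm38.p6) held an upstream window for 9 of the 10 members, Cp with a pair of start sites, and the bases shown end just before the annotated transcript start. Capitals mark matches on either strand to GGG and CC separated by any 5 bases, a loose form of the NF-kB site, or to TTGNNCAA, a loose form of the C/EBP site.
Ltf (chr9:111019042-111019291, plus strand): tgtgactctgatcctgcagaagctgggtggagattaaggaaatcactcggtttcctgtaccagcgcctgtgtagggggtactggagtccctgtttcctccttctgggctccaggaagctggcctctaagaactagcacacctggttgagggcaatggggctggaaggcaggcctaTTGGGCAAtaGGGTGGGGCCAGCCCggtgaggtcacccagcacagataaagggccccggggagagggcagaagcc
Lcn2 (chr2:32387740-32387989, minus strand): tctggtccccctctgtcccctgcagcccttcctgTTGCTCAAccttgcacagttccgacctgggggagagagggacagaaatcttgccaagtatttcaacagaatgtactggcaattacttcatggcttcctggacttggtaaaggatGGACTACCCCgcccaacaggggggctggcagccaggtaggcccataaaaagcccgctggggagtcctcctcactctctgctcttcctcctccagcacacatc
Slpi (chr2:164356508-164356757, minus strand): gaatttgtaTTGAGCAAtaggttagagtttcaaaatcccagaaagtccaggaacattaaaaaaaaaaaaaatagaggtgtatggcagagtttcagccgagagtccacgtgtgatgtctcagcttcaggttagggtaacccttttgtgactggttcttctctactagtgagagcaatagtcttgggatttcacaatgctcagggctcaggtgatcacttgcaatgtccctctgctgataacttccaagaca
Wfdc18 (chr11:83708754-83709003, plus strand): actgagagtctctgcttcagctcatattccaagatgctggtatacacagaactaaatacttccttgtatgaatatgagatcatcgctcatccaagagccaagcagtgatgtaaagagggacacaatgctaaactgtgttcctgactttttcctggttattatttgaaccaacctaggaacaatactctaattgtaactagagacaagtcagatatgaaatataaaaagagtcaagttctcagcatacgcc
In the Ltf window, 3 overlapping NF-kB matches lie in the second run of capitals. The C/EBP letters occurred in the windows of Ltf, Lcn2, Slpi and Saa1. That is 4 of 10 member windows, against 5.65% of 32851 windows of the same length over all genes. The windows of Saa1 and Cp, not shown, reach into the gene spans given below, and their matches lie inside those spans. The NF-kB letters occurred in 5 of the 10 member windows and in 45.8% of all windows. The letters TTCNNNGAA, a STAT site, were in 0 of the 10 and in 7.02% of all. Wfdc18, S100a8 and S100a9 held no match to any of the 3. A match is a description of the letters and shows no binding.

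The libraries had 14621 to 15457 genes above 0 and 11829 to 12184 genes at an FPKM of 1 or more. The number at 1 FPKM or more was 11829 to 11985 in control clone 1, overlapping T-ERG clone 2, and 12007 or more in the other clones. Some values at 0 may be failed estimates, since the abundant mitochondrial gene mt-Co3 was below 1 FPKM in 9 libraries and at 227.5 FPKM or more in the others. A member is therefore said to be listed at 0. Mouse Erg did not separate the genotypes, at 0.32 to 2.23 FPKM in control and 0.54 to 3.17 FPKM in T-ERG. The species of the ERG sequence in the genotype names is not stated, so the mouse Erg values may not count it. Tmprss2 was at 85.2 to 107.4 FPKM in control and at 32.3 to 57.2 FPKM in T-ERG. Of 10 prostate epithelium markers 9 were tested and 0 were at 0 throughout; led by Krt14, they summed to 8534 FPKM or more per library. Of 10 neutrophil markers, 7 were listed at 0 in all 20 libraries (Ptprc, Csf3r, Mpo, Elane, Prtn3, Ngp and Retnlg), and the whole list summed to 0 to 2.6 FPKM. The sum was 0 to 1.64 FPKM in control clone 1, 0.54 to 1.49 in control clone 2, 0.18 to 2.15 in T-ERG clone 1 and 0.48 to 2.6 in T-ERG clone 2, with Ly6g as the highest gene. Macrophage markers Adgre1, Cd163, Fcgr1 and Tyrobp were listed at 0 throughout, and Cd68 led that list, which summed to at most 12.3 FPKM. The fibroblast markers Col1a2 and Lum and the endothelial markers Cdh5, Kdr and Emcn were listed at 0 throughout, and those lists summed to at most 6.57 and 0.64 FPKM, led by Dcn and Pecam1.

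Control clone 1 was at 5.84 FPKM or less in every dome for all 10 members, while the highest clone mean of a member was 145.5 FPKM in control clone 2 (Ltf), 87.4 FPKM in T-ERG clone 1 (Wfdc18) and 69.7 FPKM in T-ERG clone 2 (Ltf). Differences between clones made up 92.6% to 99.7% of the variance of the 8 tested members over the 20 libraries, with a median of 96.7%, against a median of 55.0% over all 12899 genes tested. The clone mean of control clone 1 was the lowest of the 4 by more than 1 log2 unit for 7 of the 8, and this held for 1.75% of all genes tested. The exception was Wfdc18, listed at 0 in both control clone 1 and T-ERG clone 2. The highest clone varied by gene: control clone 2 for Ltf, Cp and C3 (27.1% of genes tested), T-ERG clone 1 for Lcn2 and Wfdc18 (12.7%), and T-ERG clone 2 for S100a8, S100a9 and Slpi (34.8%). T-ERG clone 2 was the sole lowest for 0 members, against 29.4% of genes tested. Since the members may have been chosen on these contrasts, nothing is read from these counts.

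**Figure D1:**
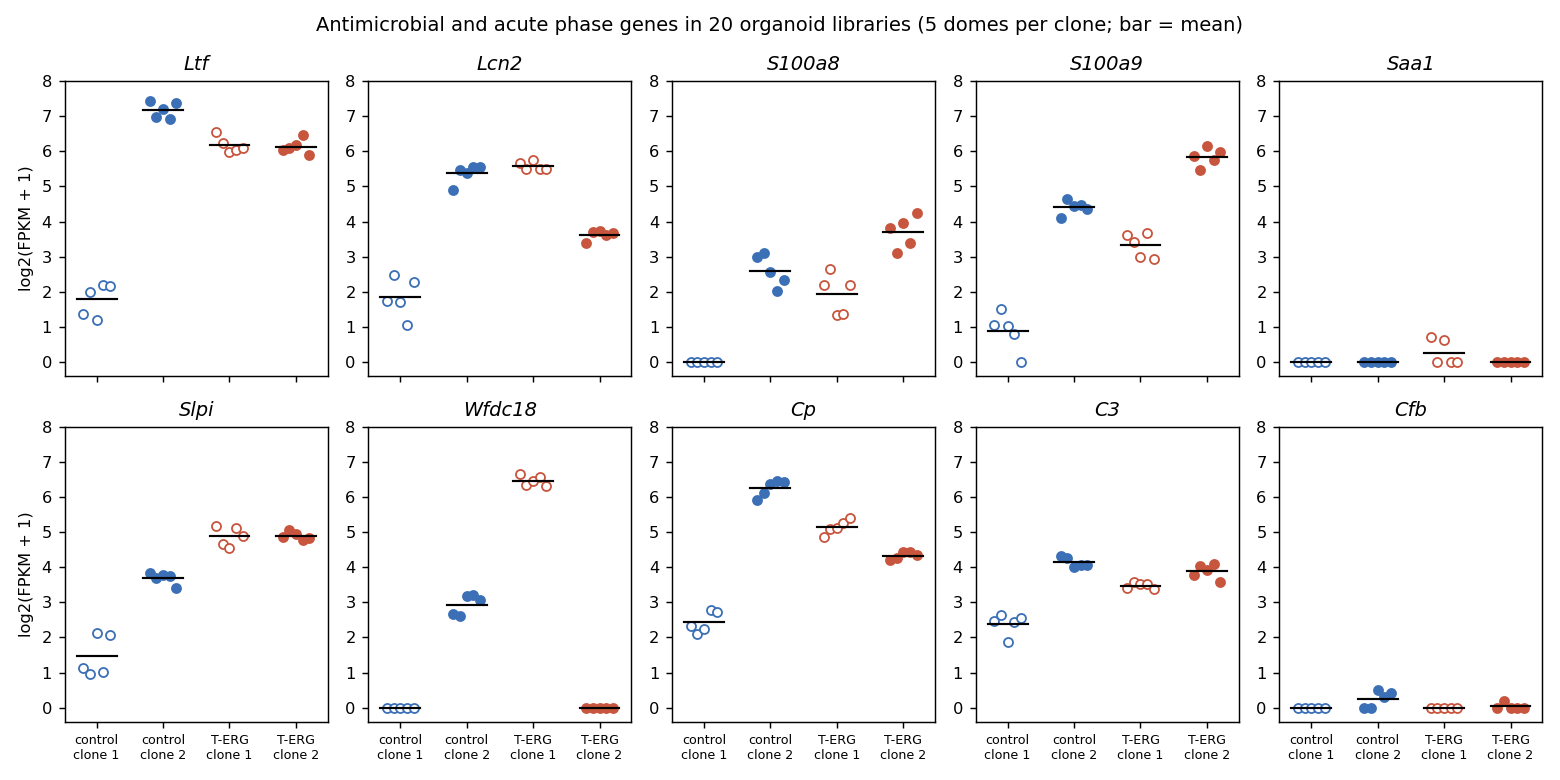
Level of each of the 10 genes in every library, as log2(FPKM + 1) on the vertical axis, by genotype and clone; each point is 1 dome and each bar the mean of 5 domes. Ltf lies between 1.31 and 3.57 FPKM in control clone 1 and at 58.8 FPKM or more in the other 15 libraries, and Wfdc18 is above 0 in control clone 2 and T-ERG clone 1 alone.

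Among the iron-sequestering proteins, Ltf (ENSMUSG00000032496, chromosome 9, 111019292 to 111042766) had the highest mean of the set over all libraries, 72.5 FPKM. It was at 1.57, 3.03, 1.31, 3.57 and 3.47 FPKM in the 5 domes of control clone 1. The domes of control clone 2 had 170.7, 125.9, 145.6, 120.5 and 164.9 FPKM. The T-ERG domes had 92.6, 74.65, 62.5, 64.5 and 67.4 FPKM in clone 1 and 64.0, 67.2, 71.35, 87.1 and 58.8 FPKM in clone 2. The control clones thus bracketed T-ERG: no control dome fell within the range of the T-ERG domes. The means were 2.59 ± 1.07 and 145.5 ± 22.5 FPKM in the control clones, a 56.2-fold ratio, and 72.3 ± 12.2 and 69.7 ± 10.7 FPKM in the T-ERG clones (SD, n = 5 domes each). By the range of its clone means on the log2 scale, Ltf ranked 9 of 12899 genes tested.

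Lcn2 (ENSMUSG00000026822, chromosome 2, 32384637 to 32387739) had another order. Its values were 2.32, 4.54, 2.26, 1.09 and 3.90 FPKM in control clone 1 and 29.1, 43.05, 41.0, 46.3 and 46.0 FPKM in control clone 2. In T-ERG they were 49.4, 44.35, 53.4, 44.6 and 43.9 FPKM in clone 1, overlapping control clone 2, and 9.44, 11.9, 12.3, 11.3 and 11.8 FPKM in clone 2. The T-ERG clones thus differed 4.15-fold for Lcn2, with no overlap, and overlapped for Ltf. Lcn2 in the first dome of control clone 2, at 29.1 FPKM, lay apart from the other 4 domes of that clone.

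Cp (ENSMUSG00000003617, chromosome 3, 19956933 to 20009750) ranged from 3.24 to 5.84 FPKM in control clone 1 and from 59.5 to 86.3 FPKM in control clone 2, a 17.0-fold ratio of the means. T-ERG clone 1 ranged from 27.8 to 41.2 FPKM and T-ERG clone 2 from 17.5 to 20.6 FPKM. No pair of clones overlapped for Cp, and the T-ERG clones differed 1.8-fold. The acute phase gene Saa1 (ENSMUSG00000074115, chromosome 7, 46740497 to 46743181) was listed at 0 in 18 libraries and reached 0.63 and 0.54 FPKM in 2 domes of T-ERG clone 1, so it was not tested. Its sequence is close to that of other serum amyloid genes, which makes its value uncertain.

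The calprotectin genes lie on chromosome 3 with 22595 bases between them, S100a8 (ENSMUSG00000056054) at 90669071 to 90670034 and S100a9 (ENSMUSG00000056071) at 90692630 to 90695721. S100a9 was at 1.08, 1.86, 1.04, 0.74 and 0 FPKM in control clone 1 and at 16.1, 24.1, 21.0, 21.3 and 19.5 FPKM in control clone 2. In T-ERG it was at 11.4, 9.69, 7.00, 11.7 and 6.64 FPKM in clone 1 and at 57.0, 43.6, 70.0, 52.8 and 62.5 FPKM in clone 2. T-ERG clone 2 was the highest and control clone 1 the lowest, and no ranges overlapped. The means of the T-ERG clones, 9.28 ± 2.37 and 57.2 ± 9.94 FPKM, differed 6.16-fold. S100a8 was listed at 0 in every dome of control clone 1 and ranged from 3.06 to 7.61 FPKM in control clone 2, from 1.53 to 5.28 FPKM in T-ERG clone 1 and from 7.65 to 17.8 FPKM in T-ERG clone 2. Control clone 2 and T-ERG clone 1 overlapped for S100a8, and the other pairs of clones did not. Where both were above 0 in every dome, the median ratio of S100a9 to S100a8 was 4.24 in control clone 2 (range 2.33 to 6.97), 3.19 in T-ERG clone 1 (1.83 to 7.3) and 4.79 in T-ERG clone 2 (3.51 to 5.7), and these ranges overlapped.

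The antiprotease Slpi (ENSMUSG00000017002, chromosome 2, 164354070 to 164356507) was the 1 member that separated the genotypes. It was at 1.17, 0.93, 3.39, 1.04 and 3.21 FPKM in control clone 1 and at 13.3, 11.8, 12.6, 12.3 and 9.69 FPKM in control clone 2. The T-ERG domes had 34.7, 24.2, 22.2, 33.9 and 28.7 FPKM in clone 1 and 28.0, 32.4, 29.9, 26.3 and 27.1 FPKM in clone 2. All 10 T-ERG domes lay above all 10 control domes, as for 2.5% of genes tested, and the reverse held for 0 members and 3.7% of genes tested. The T-ERG clones had means of 28.7 ± 5.60 and 28.7 ± 2.42 FPKM, against 1.95 ± 1.24 and 11.9 ± 1.36 FPKM in the control clones. The ratio of either T-ERG clone to control clone 2 was 2.41, and to control clone 1 it was 14.7.

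Wfdc18 (ENSMUSG00000000983, chromosome 11, 83709004 to 83711360), which encodes a secreted protein with a WAP domain like those of Slpi, had 3 distinct levels over the 4 clones. It was listed at 0 in the 5 domes of control clone 1 and in the 5 domes of T-ERG clone 2. Control clone 2 had 5.29, 5.07, 8.00, 8.16 and 7.32 FPKM, and T-ERG clone 1 had 99.1, 80.1, 85.8, 93.6 and 78.5 FPKM. Its mean was 12.9-fold higher in T-ERG clone 1 than in control clone 2, and each genotype had 1 clone above 0 and 1 clone listed at 0. Only 3 genes tested, Wfdc18 included, had a range of clone means as wide as its 6.46 log2 units. Wfdc18 and Ltf were the members with the highest means in T-ERG clone 1, 87.4 and 72.3 FPKM, and their ranges overlapped there.

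C3 (ENSMUSG00000024164, chromosome 17, 57203967 to 57228136), the central component of complement, had the smallest range of clone means among the 8 tested members, 1.76 log2 units. It ranged from 2.68 to 5.20 FPKM in control clone 1, from 15.2 to 18.9 FPKM in control clone 2, from 9.32 to 10.9 FPKM in T-ERG clone 1 and from 11.0 to 15.9 FPKM in T-ERG clone 2. The ratio of the control clones was 3.88, and T-ERG clone 2 overlapped control clone 2. Cfb (ENSMUSG00000090231, chromosome 17, 34856374 to 34862514), the protease that joins C3 in the alternative pathway convertase, was listed at 0 in 16 libraries. The other 4 libraries had 0.41, 0.23 and 0.34 FPKM in control clone 2 and 0.13 FPKM in T-ERG clone 2, and Cfb was not tested.

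The order of the levels, in FPKM, also changed with the clone. The cDNA was barcoded and pooled before fragmentation, and whether reads cover whole transcripts was not tested, so the order of genes of unlike length is uncertain. In control clone 1 the highest were Cp at 4.48 ± 1.16 FPKM and C3 at 4.33 ± 0.971 FPKM, and each neighbour in the order overlapped the next. In control clone 2 the order was Ltf, Cp, Lcn2, S100a9, C3, Slpi, Wfdc18 and S100a8, where S100a9 and C3 overlapped and Wfdc18 and S100a8 overlapped. In T-ERG clone 1 Wfdc18 and Ltf came before Lcn2, Cp and Slpi, with Cp and Slpi overlapping. In T-ERG clone 2 Ltf and S100a9 overlapped at the top, followed by Slpi, Cp and a group of C3, S100a8 and Lcn2 in which neighbours overlapped.

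**Figure D2:**
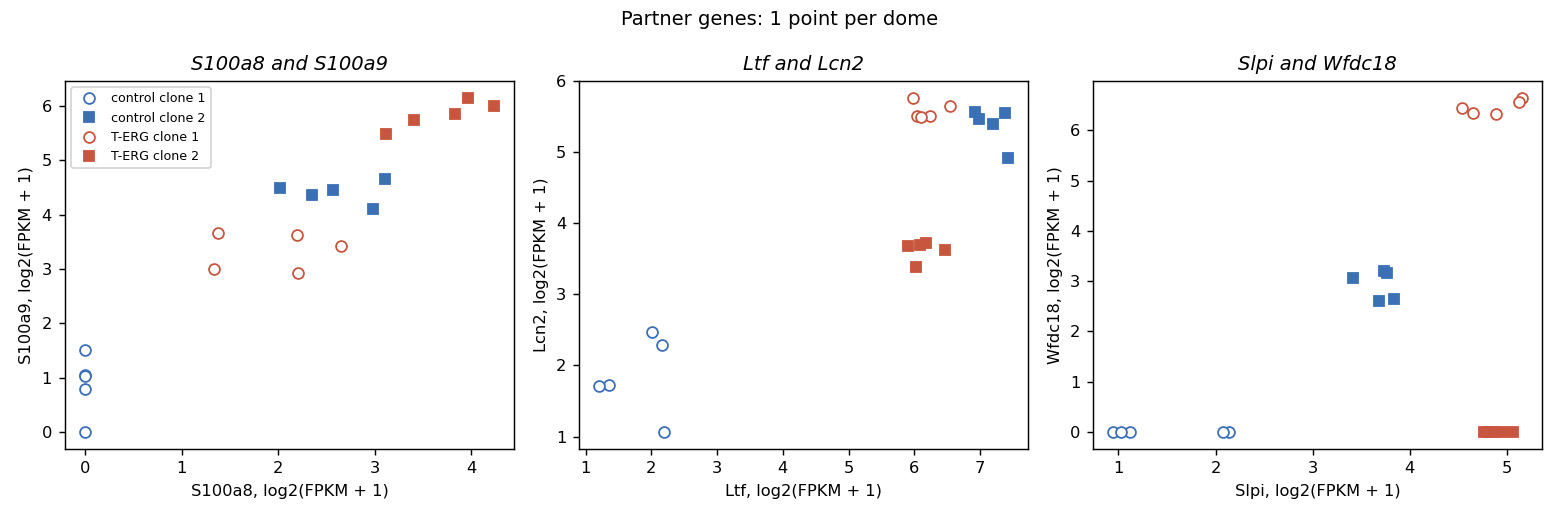
Levels of 3 pairs of genes with a shared role, as log2(FPKM + 1) on both axes; each point is 1 dome, coloured by genotype with open symbols for clone 1 and filled for clone 2. The domes group by clone, and T-ERG clone 2 combines an Slpi mean of 28.7 FPKM with Wfdc18 listed at 0.

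The genotype comparison asked whether T-ERG organoids differ from control organoids. For these genes the size and often the sign of the difference depended on which clones entered. On 4 clone means, T-ERG minus control was above 0 for all 8 tested members, with a median of 1.60 log2 units, and above 0 for 50.8% of all genes tested. The differences were 2.31 ± 0.746 for Slpi, 1.94 ± 1.43 for S100a9, 1.76 ± 2.33 for Wfdc18, 1.67 ± 1.77 for Ltf and 1.53 ± 1.05 for S100a8 (limma SE, 2 clones per genotype). They were 0.99 ± 1.33 for Lcn2, 0.41 ± 0.613 for C3 and 0.39 ± 1.29 for Cp. Without control clone 1 the median was -0.15, 46.4% of all genes tested were higher in T-ERG, and 4 members were lower in T-ERG: Cp by -1.52, Ltf by -1.025, Lcn2 by -0.77 and C3 by -0.47 log2 units. Slpi was then higher by 1.195, Wfdc18 by 0.29, S100a8 by 0.22 and S100a9 by 0.18. Without control clone 2 all 8 were higher, against 55.0% of all genes tested, with a median of 3.03 log2 units. Without T-ERG clone 1, 6 of the 8 were higher, against 51.8%, with a median of 1.13; Wfdc18 was then at -1.47, Cp at -0.011 and Lcn2 at 0.0066 log2 units. Without T-ERG clone 2 all 8 were higher, against 49.9%, with a median of 1.25 log2 units.

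By clone means, T-ERG was separate from control and higher for Slpi alone, which is 1 of 8 members against 21.7% of all genes tested, and separate and lower for 0 of 8, against 23.2%. With limma on clone means, 0 of 12899 genes had an adjusted p below 0.05 (0.0%), while 1089 had an unadjusted p below 0.05 (8.44%). A limma fit on all 20 libraries with the clone as a random block called 1398 genes. In bulk RNA, fewer cells of a type and less RNA per cell cannot be told apart.

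**Figure D3:**
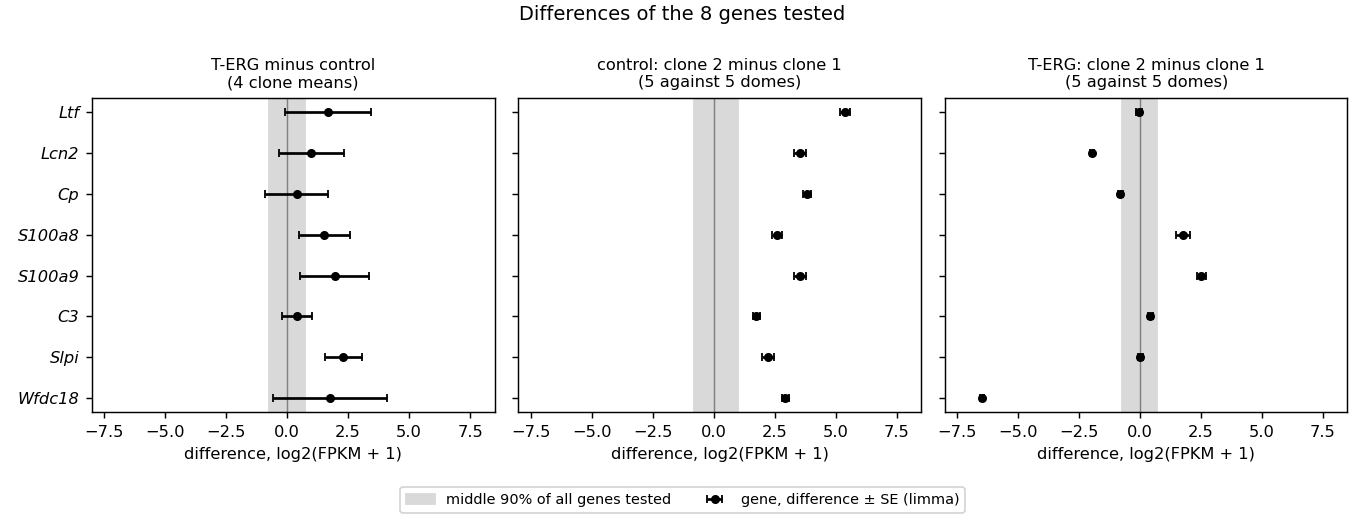
Difference of each tested gene in 3 comparisons, in log2(FPKM + 1) units on the horizontal axis; points are differences, bars ± 1 SE from limma, and the grey band holds the middle 90% of all 12899 genes tested. All 8 genes lie to the right of the band between the control clones, from 1.76 for C3 to 5.39 for Ltf, and on both sides of 0 between the T-ERG clones.

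Between the clones of control, all 8 tested members were higher in clone 2, by 1.76 ± 0.140 (C3) to 5.39 ± 0.204 log2 units (Ltf). Over all genes tested, limma called 38.3% at an adjusted p below 0.05, with 25.1% (3233 genes) higher in clone 2. A rise of over 2 log2 units was found in 7 of the 8 members and in 0.775% of genes tested. The members may have been chosen on this contrast, so nothing is read from these counts. The comparison called 4939 genes in all, 1706 of them lower in clone 2, and the median gene was 0.10 log2 units higher in clone 2. With median centring of the libraries the calls split into 2390 higher and 2287 lower, and the differences of the 8 members kept their sign. Between the clones of T-ERG, limma called 30.5% of genes tested, 17.0% higher in clone 2 and 13.5% lower. S100a9 was higher by 2.52 ± 0.170, S100a8 by 1.75 ± 0.288 and C3 by 0.41 log2 units. Wfdc18 was lower by -6.46 ± 0.0830, Lcn2 by -1.96 ± 0.0829 and Cp by -0.81 ± 0.0968 log2 units. The values were -0.05 ± 0.123 for Ltf and 0.02 ± 0.122 for Slpi. The domes of a clone are technical replicates per the labels, so these errors and the calls over all genes measure the spread between domes of 1 culture.

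Epithelial markers moved with the clones as well. The luminal progenitor list summed to 24210 to 26310 FPKM in control clone 1, 15730 to 15880 in control clone 2, 13610 to 14290 in T-ERG clone 1 and 8388 to 8770 in T-ERG clone 2, with Psca as its highest gene. The squamous list, led by Krt6a, summed to 11830 to 12850, 5619 to 5788, 17900 to 18440 and 21250 to 21830 FPKM in the same order. Not all of its genes followed that sum. Ivl, Flg, Sprr1a and Lor, 4 of 14, had their highest clone mean in control clone 1, with Ivl at 209, 91.0, 49.8 and 36.55 FPKM. Krt10, Krt13 and Tgm1 were highest in T-ERG clone 1. The rest were highest in T-ERG clone 2, but Krt16 among them was higher in control clone 2 (155.9 FPKM) than in control clone 1 (104.7 FPKM). All genes of both lists were tested, and none was at 0 throughout. Their part in the members' differences was not tested. One gene of the progenitor list, Prom1, picked out after its values were seen, was at 1.78 FPKM in control clone 1, 21.4 in control clone 2, 10.2 in T-ERG clone 1 and 3.68 in T-ERG clone 2.

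Genes that share a known role across domes were compared on deviations from the clone means, a measure that the differences between clones do not enter. The heterodimer partners S100a8 and S100a9 had a Pearson r of 0.167 and a Spearman rho of 0.25 over 20 domes (permutation within clones, p = 0.414 and 0.313, adjusted over 4 pairs 0.811 and 0.418). Without the 2 domes farthest from the median of S100a8, r was 0.078. The values for Ltf with Lcn2 were r = -0.0025 and rho = 0.0526 (permutation p = 0.996 and 0.859, adjusted 0.996 and 0.859), and for Slpi with Wfdc18 r = 0.078 and rho = 0.206 (permutation p = 0.608 and 0.288, adjusted 0.811 and 0.418). The pair of C3 and Cfb gave r = -0.241 and rho = -0.266 (permutation p = 0.216 and 0.309, adjusted 0.811 and 0.418), with Cfb above 0 in only 4 domes. Without the 2 farthest domes r was 0.214, 0.154 and -0.516 in these 3 pairs. No pair passed over the 20 domes pooled. The 5 domes of a single clone were too few for a correlation of their own, so a relation within 1 clone was not tested. S100a8 was at 0 in 5 of the domes and Wfdc18 in 10, which leaves fewer informative points.

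Other genes of these pathways, 61 tested genes in 7 lists without the members, were mixed in direction. Control clone 1 was the lowest clone for 15 of the 61, against 39.6% of all genes tested. In the genotype comparison limma called 0 of the 61, with 12 at an unadjusted p below 0.05 and 15 called in the fit with the clone as a random block. Their median difference was -0.05 log2 units, against 0.01 over all genes tested. Between the control clones 15 were called higher and 15 lower in clone 2, where the shares over all genes tested were 25.1% and 13.2%. With median centring these counts were 14 and 21, and with quantile normalization 15 and 22. Between the T-ERG clones 9 were called higher and 16 lower, against 17.0% and 13.5% of all genes tested.

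Of 26 other antimicrobial genes, 14 were tested, and the untested ones reached at most 0.49 FPKM. Limma called 6 higher and 3 lower in control clone 2, and 2 higher and 5 lower in T-ERG clone 2, while the genotype median was 0.01 log2 units. Defb14, a beta-defensin, had 10.1 and 4.50 FPKM in the control clones and 25.3 and 46.5 FPKM in the T-ERG clones, 2.68 ± 0.727 log2 units higher in T-ERG (limma adjusted p = 0.574). Pglyrp4, which recognises peptidoglycan, had 8.96, 4.29, 16.5 and 13.6 FPKM in the same order, 1.19 ± 0.367 higher in T-ERG (limma adjusted p = 0.574). Plac8 had 170.0, 831, 413 and 37.5 FPKM. It was higher in control clone 2 by 2.28 ± 0.0391 (limma adjusted p = 8.04e-12) and lower in T-ERG clone 2 by -3.43 ± 0.0794 log2 units (limma adjusted p = 2.03e-10). Pglyrp1, a peptidoglycan recognition protein of granules and epithelia picked out after its values were seen, was at 22.0, 160.1, 36.9 and 53.8 FPKM.

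Of 11 other WAP domain genes, 4 were tested, and the rest reached at most 0.76 FPKM. Limma called 1 higher and 1 lower in control clone 2, and 0 higher and 2 lower in T-ERG clone 2, and the genotype median was 1.33 log2 units. Wfdc2 had 485 and 969 FPKM in the control clones and 295 and 279 FPKM in the T-ERG clones, so it lay lower in T-ERG, by -1.25 ± 0.349 log2 units (limma adjusted p = 0.574). Wfdc12 went the opposite way to Wfdc18 between the control clones, with 20.4, 2.73, 76.3 and 23.3 FPKM over the 4 clones. It was called lower in clone 2 of control by -2.53 ± 0.124 (limma adjusted p = 4.27e-08) and of T-ERG by -1.67 ± 0.0735 log2 units (limma adjusted p = 4.22e-08). Wfdc5 was at 1.23, 0.26, 6.15 and 6.23 FPKM, a genotype difference of 2.15 ± 0.313 (limma adjusted p = 0.506).

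Of 24 other acute phase genes 4 were tested, and the rest reached at most 0.66 FPKM. Limma called 3 higher and 0 lower in control clone 2, and 1 higher and 2 lower in T-ERG clone 2, with a genotype median of 0.06 log2 units. Cd14, a coreceptor for lipopolysaccharide, had 6.80 and 32.6 FPKM in the control clones and 10.4 and 15.1 FPKM in the T-ERG clones. It was called higher in control clone 2 by 2.11 ± 0.0870 log2 units (limma adjusted p = 1.07e-08). Steap4, a metalloreductase, had 3.08, 15.65, 13.35 and 4.26 FPKM, which is lowest in control clone 1, and was called in both clone comparisons, by 2.05 ± 0.130 (limma adjusted p = 3.37e-07) and -1.45 ± 0.0874 log2 units (limma adjusted p = 4.78e-07). Orm1 stayed between 0.764 and 2.02 FPKM in the clone means.

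Of 21 other complement components 3 were tested, the rest reaching at most 1.31 FPKM, and of 13 regulators and receptors 3 were tested, the rest reaching at most 2.41 FPKM. The genotype medians were -0.17 and -1.13 log2 units. Of the components, C1s1 was the 1 call, higher in control clone 2 by 1.075 ± 0.279 log2 units (limma adjusted p = 0.0102), at 0.94 and 3.00 FPKM, and C4a and Cfp stayed below 2 FPKM in every clone mean. Clu, a secreted chaperone that also restrains complement, had 152, 529, 162 and 103 FPKM over the 4 clones. It was called higher in control clone 2 by 1.80 ± 0.0875 (limma adjusted p = 3.90e-08) and lower in T-ERG clone 2 by -0.66 ± 0.0871 log2 units (limma adjusted p = 0.00018). Cd55, which breaks up complement convertases, was at 23.8, 20.1, 10.3 and 7.18 FPKM, a genotype difference of -1.25 ± 0.230 (limma adjusted p = 0.574), and was called lower in T-ERG clone 2. Cr1l, another regulator, was at 42.0 to 45.7 FPKM in all 4 clones.

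Of 18 genes of iron binding and transport 10 were tested, the rest reaching at most 1.15 FPKM. Limma called 3 higher and 1 lower in control clone 2, and 3 higher and 2 lower in T-ERG clone 2, and the genotype median was 0.04 log2 units. Tfrc, the transferrin receptor, had 6.02, 12.8, 10.9 and 24.9 FPKM and was called higher in clone 2 of both genotypes, by 0.98 ± 0.0883 in control (limma adjusted p = 5.90e-06) and 1.13 ± 0.0788 in T-ERG (limma adjusted p = 1.57e-06). Slc22a17, described as a receptor for Lcn2, was at 4.27 and 1.76 FPKM in the control clones and at 0.446 and 0.544 FPKM in the T-ERG clones, with T-ERG minus control at -1.34 ± 0.382 on the log2 scale (limma adjusted p = 0.574). Lrp1, an endocytic receptor with many ligands, differed by -0.60 ± 0.194 (limma adjusted p = 0.574).

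Of 25 receptors and transcription factors of acute phase induction, 23 were tested. Limma called 0 higher and 10 lower in control clone 2, against 25.1% and 13.2% of all genes tested. In T-ERG clone 2 it called 3 higher and 3 lower, against 17.0% and 13.5%. The genotype median was -0.09 log2 units. Control clone 1 was the lowest clone for 1 of the 23, against 39.6% of all genes tested. A part of these genes in the members' differences was not tested. Il1r1, an interleukin-1 receptor, had 8.91, 6.73, 4.67 and 3.27 FPKM, and Tlr4, the lipopolysaccharide receptor, had 5.98, 4.11, 2.54 and 3.01 FPKM over the 4 clones. Elf3, an epithelial ETS factor, had 299 and 238 FPKM in the control clones and 109 and 77.1 FPKM in the T-ERG clones. The genotype differences of these 3 were -0.84 ± 0.255, -0.65 ± 0.248 and -1.53 ± 0.232 log2 units, with limma adjusted p of 0.574, 0.574 and 0.506. Il6ra, an interleukin-6 receptor picked out after its values were seen, was at 17.6 FPKM in control clone 1 and at 6.25 to 7.78 FPKM in the other clones.

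**Figure D4:**
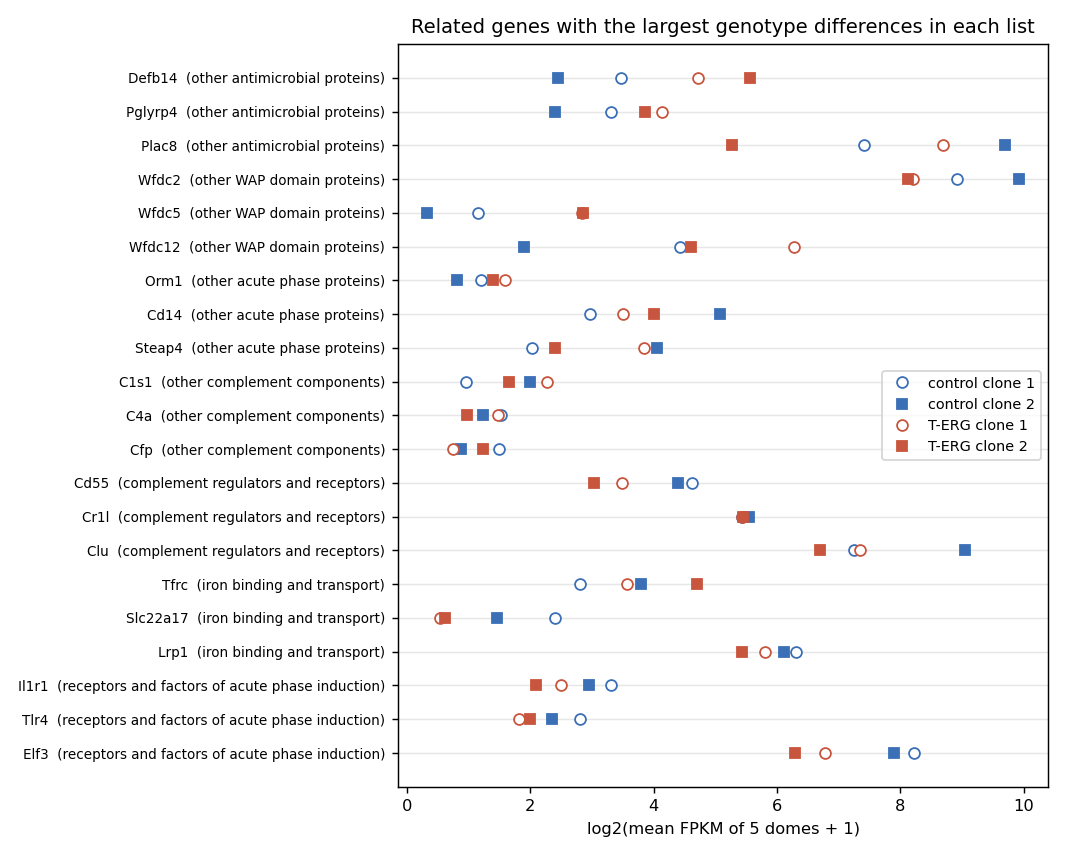
Clone means of the 3 genes with the largest genotype difference in each of the 7 lists of related genes, as log2(mean FPKM + 1) on the horizontal axis; blue marks control and red T-ERG, open circles clone 1 and filled squares clone 2. Cd14, Steap4, C1s1 and Tfrc are lowest in control clone 1, and Defb14, Pglyrp4, Wfdc5 and Wfdc12 are lowest in control clone 2.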

How the data were processed

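RNA of single Matrigel domes was sequenced in 20 libraries, and the 4 whole-genome libraries were not analysed here. The authors deposited log2(FPKM + 1) values, 1 column per library. Per the submitters' processing notes RSEM 1.3.0 and DESeq2 were used with build mm10; which step each served, the aligner and the annotation are not stated there. Undoing the log gave an FPKM of 2 decimals for 100% of values (tolerance 0.001 hundredths). Without read counts the depth of each library is unknown.

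A repeated header left 2 T-ERG columns without a number. The T-ERG samples without a column were all of clone 2, so both columns were used there, and they are given first among its domes. No library was a copy of another of the same clone (correlation at most 0.970 over 40 pairs within clones).

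Genes reaching 1 FPKM in 5 or more libraries were tested with limma 3.58.1 (R 4.3.3, empirical Bayes with an intensity trend, two-sided, Benjamini-Hochberg over 12899 genes, threshold 0.05). Genotypes were compared on 4 clone means, and clones on 5 against 5 domes. Differences on this scale understate changes of low genes. The fits were tested on simulated data. Dome deviations were tested with 100000 permutations within clones. The members and lists were chosen with earlier results of these data known. Named were all members and, from each related list, the 3 tested genes with the largest genotype difference; of marker lists, the highest gene and genes at 0 throughout. Genes of the related lists outside this rule are said to be picked out. Further genes of the progenitor and squamous lists were named by their clone order after their values were seen. Upstream sequences, names and coordinates (1-based) are from RefSeq GRCm38.p6, the assembly of mm10. Alternatives changed the filter, pseudocount, scaling, block and the libraries used. Python 3.11.15 was used for summaries.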

Additional observations from a re-analysis of the deposited data

Results flagged for a closer look

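Values of 5 domes were compared within each clone on the log2 scale, over 32 groups with any spread; chance marks about 1 group in 20. For 3 groups 1 dome lay far from the others. Lcn2 was at 29.1 FPKM in 1 dome of control clone 2, below the other 4 at 41.0 to 46.3 FPKM. C3 was at 2.68 FPKM in 1 dome of control clone 1, below the other 4 at 4.37 to 5.20 FPKM. Cfb was at 0.13 FPKM in 1 dome of T-ERG clone 2, where the other 4 domes were listed at 0. With 4 domes tied at 0, any value above 0 in the remaining dome is marked, so this flag carries no information. The cause of these values was not tested.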

How the results depend on the processing

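The genotype comparison called 0 genes and 0 related genes without each clone in turn, without a filter, at a mean FPKM of at least 5, with pseudocounts of 0.1 and 5, with median centring, with quantile normalization, without the trend and with the clone number as a replicate block. A fit to the 20 libraries that treated clone as a random block called 1398 genes and 15 related genes. These calls rest in part on the spread between technical domes, with the same correlation within clones set for all genes. Clone numbers showed a correlation of 0.168 between genotypes, and with 2 pairs they are not taken as pairing samples. Between control clones 4510 to 4927 genes were called under the filters, pseudocounts, scalings and the dome number as a replicate block, and 4539 to 4820 without each dome, except 4079 at a mean FPKM of at least 5. Between T-ERG clones it was 3368 to 3927 and 3513 to 3797. With the dome number as a replicate block, which leaves 3 pairs of domes, it was 1368 genes and 12 related genes. Dome numbers correlated at most 0.0595, so they do not pair samples. Related genes called between the control clones numbered 29 to 33 without each dome, 35 with median centring, 37 with quantile normalization and 24 under the stricter filter; between T-ERG clones they numbered 21 to 25 under all of these.

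Members with both T-ERG clone means above control numbered 1 to 7 of 8 without each clone (3 without T-ERG clone 1, 3 without T-ERG clone 2, 7 without control clone 2, with 39.6%, 29.6% and 45.2% of all genes tested) and 1 under each scaling. Without control clone 1, 1 member was separate and higher (30.7% of genes tested) and 3 were separate and lower (40.3%). Pseudocounts of 5 and 0.1 moved the control clone differences of all 8 members by more than 1 SE, with no change of sign: 1.225 to 6.07 log2 units for Wfdc18, 1.03 to 5.69 for S100a8 and 1.299 to 2.76 for Slpi. The genotype difference of S100a8 was 0.72 and 3.05, and the T-ERG clone difference of Wfdc18 -4.20 and -9.77. No pair of partner genes passed under any alternative, with r from -0.384 to 0.288 without each clone; for C3 with Cfb, median centring and quantile normalization gave no value because Cfb was not tested. Without each dome the T-ERG clone difference was -0.133 to 0.0411 for Ltf and -0.0663 to 0.0890 for Slpi, on both sides of 0. Unknown depth limits the reading of values at 0.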
